A study of Saccharomyces cerevisiae with 8 samples.

Results

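The genes described here are 10 factors of ribosome rescue and ribosome-associated quality control in budding yeast. They are DOM34 (YNL001W), HBS1 (YKR084C), SKI7 (YOR076C), HEL2 (YDR266C), SLH1 (YGR271W), CUE3 (YGL110C), MBF1 (YOR298C-A), RQC1 (YDR333C), RQC2 (YPL009C) and RKR1 (YMR247C). They were picked by name, when earlier results of these data were known, and are 10 of 11966 measured features and of 5861 protein-coding genes. The series sequenced total RNA with strand kept and ribosomal RNA removed from Saccharomyces cerevisiae BY4741, a haploid laboratory strain. All libraries carry MATa his3Δ1 leu2Δ0 met15Δ0 ura3Δ0, and the mutant adds upf1*::kanMX4, a drug marker at UPF1 (listed as NAM7), the gene of the helicase of nonsense-mediated decay. Cells in YPD at 30 °C and an OD600 of 0.5 received anisomycin (ANS), an inhibitor of peptide bond formation, at 100 µg/ml, or an equal volume of its solvent DMSO, for 30 min. These 4 groups, called WT DMSO, WT ANS and likewise for upf1 below, held 2 biological replicates each. Whether the mutant was 1 clone is not given in the sources used here.

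A ribosome that stalls on an mRNA is met by the next one, and the collided pair is a signal for rescue. Hel2 is the ubiquitin ligase that marks collided ribosomes, and the ribosome quality control trigger (RQT) complex, with the helicase Slh1 and the ubiquitin-binding Cue3, pulls them apart. Mbf1 binds collided ribosomes and keeps the reading frame, and it is also a coactivator of the transcription factor Gcn4. Dom34 and its GTPase partner Hbs1 open ribosomes that are stalled with an empty A site, while Ski7 links the Ski complex to the cytoplasmic exosome for decay of mRNAs that lack a stop codon. On the freed large subunit, Rqc2 extends the stuck peptide with alanine and threonine, the ligase Rkr1 (Ltn1) ubiquitinates it, and Rqc1 helps to bring in the segregase Cdc48.

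Reads recovered from the deposited densities numbered 6954353 to 11994371 per library. NAM7 density was 0.432 and 0.449 in WT with DMSO, 1.24 and 1.59 in WT with ANS, 0.0113 and 0.00975 in upf1 with DMSO and 0.0210 and 0.0244 in upf1 with ANS, so that the mutant libraries matched their label. A density is reads per nt of the feature times 1 factor per library, and these factors hold small nucleolar RNAs (snoRNAs) level. On that deposited scale the median change of tested protein-coding genes under ANS was 1.73 (log2) in WT and 1.44 in upf1. Each comparison is therefore also given relative to protein-coding genes, after each library was rescaled to their median ratio, which moved those medians to 0.07 and -0.02. In the same way the rescaling moved the median for upf1 against WT from 0.10 to -0.13 in DMSO and from -0.01 to -0.04 under ANS. A change was called at a limma p, adjusted over 11579 tested features by Benjamini and Hochberg, below 0.05. Fold changes are on the scale of log2(density + 0.00340) and errors of changes are SE. The libraries are bulk RNA, in which fewer cells holding a transcript and less of it per cell cannot be told apart.

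All 10 genes passed the filter on low values. Each has 1 coding exon in build R64 and none overlaps another annotated gene. DOM34 lies at chrXIV:627456-628616 on the plus strand and HBS1 at chrXI:597055-598890 on the minus strand. SKI7 lies at chrXV:469377-471620 and HEL2 at chrIV:1000104-1002023, both on the minus strand. SLH1 spans chrVII:1031791-1037694 on the plus strand, and CUE3 lies on the same chromosome at chrVII:301537-303411 on the minus strand. MBF1 (chrXV:877230-877685), RQC1 (chrIV:1133260-1135431), RQC2 (chrXVI:535820-538936) and RKR1 (chrXIII:763351-768039) are all on the minus strand. No stretch of 50 coding bases of any of the 10 occurs elsewhere in the genome. The length behind each density exceeded the coding length by 40 nt for SKI7 up to 386 nt for MBF1.

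HBS1 and SKI7 are paralogs from the whole-genome duplication, and they are shown first because reads shared between them would blur their separate values. Their longest identical coding run, in capitals with the coding bases around it, was 13 nt long and fell at bases 1654 to 1666 of HBS1 and 21 to 33 of SKI7.
HBS1 (chrXI:597216-597246, minus strand): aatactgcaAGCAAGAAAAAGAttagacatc
SKI7 (chrXV:471579-471609, minus strand): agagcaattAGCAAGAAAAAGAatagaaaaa
The capitals lie at positions of the reading frames that do not correspond, and the flanks differ.

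The 300 nt before each start codon were searched on both strands for 5 motifs, as a description of the letters there. CCCCT, the stress response element bound by Msn2 and Msn4, was present in 22.5% of 5861 such windows and, among the 10 genes, in that of MBF1. GATGAG, the core of the PAC element of ribosome biogenesis genes, was in 18.5% of windows and, among the 10, in that of DOM34, where 2 copies stand on the opposite strand and overlap by 1 base. AAAATTT, the core of the RRPE element of the same gene class, was in 24.9% of windows and in those of DOM34, SLH1 and CUE3, and it overlaps its own reverse complement. TGACTC, the core of a Gcn4 site, was in 7.93% of windows and GGTGGCAAA, bound by Rpn4, in 1.23%, and these letters were in none of the 10 windows. The sites below are shown for the genes with the extreme changes under ANS, MBF1 and CUE3, and for DOM34, which holds both biogenesis motifs and whose upstream region is shared with RLP7, a divergent ribosome biogenesis gene whose coding sequence begins 313 nt away. Capitals mark the motif or its reverse complement.
MBF1, CCCCT (chrXV:877834-877854, minus strand): aacgggcgCCCCTtgacggtg
DOM34, GATGAG (chrXIV:627224-627245, plus strand): agacttttCTCATCtcatcgct
DOM34, AAAATTT (chrXIV:627266-627288, plus strand): agctgaaaAAAATTTtcttttta
CUE3, AAAATTT (chrVII:303428-303450, minus strand): aatcttggAAATTTTtataggat

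In untreated WT cells MBF1 stood apart from the other 9 genes. Its density of 2.72 ± 0.384 (SD, n = 2) was 9.83 times that of HBS1, which came next at 0.276 ± 0.0266. DOM34 followed at 0.264 ± 0.0195 and HEL2 at 0.248 ± 0.00520, and neighbours among these last 3 overlapped between replicates. RQC1 (0.208 ± 0.00453), RQC2 (0.204 ± 0.00935) and RKR1 (0.201 ± 0.00224) formed a second set, in which neighbours also overlapped. SLH1 (0.129 ± 0.00229), CUE3 (0.0998 ± 0.00215) and SKI7 (0.0908 ± 0.00411) were lowest, each clear of its neighbours. From HBS1 down to SKI7 the densities spanned 3.04-fold. Among protein-coding genes MBF1 was at the mean percentile 95.6 and SKI7 at 34.9. Without Upf1, in DMSO, MBF1 was again first, HBS1 next and SKI7 last, and MBF1 exceeded HBS1 by 9.13 times.

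The order changed with ANS. In WT ANS, MBF1 at 3.43 ± 0.835 was only 3.40 times the next gene, which was now RQC1 at 1.01 ± 0.0750, and RQC1, HEL2 and DOM34 overlapped as neighbours. HBS1 came after them at 0.742 ± 0.0642, below both DOM34 libraries. CUE3, next to last in DMSO, overlapped RKR1 and RQC2 at 0.638 ± 0.0765. SKI7 remained lowest at 0.396 ± 0.0464. In upf1 ANS the order from rank 2 on began with RQC1, DOM34, HEL2 and HBS1 and ended with SKI7, and every neighbour below MBF1 overlapped.

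**Figure D1:**
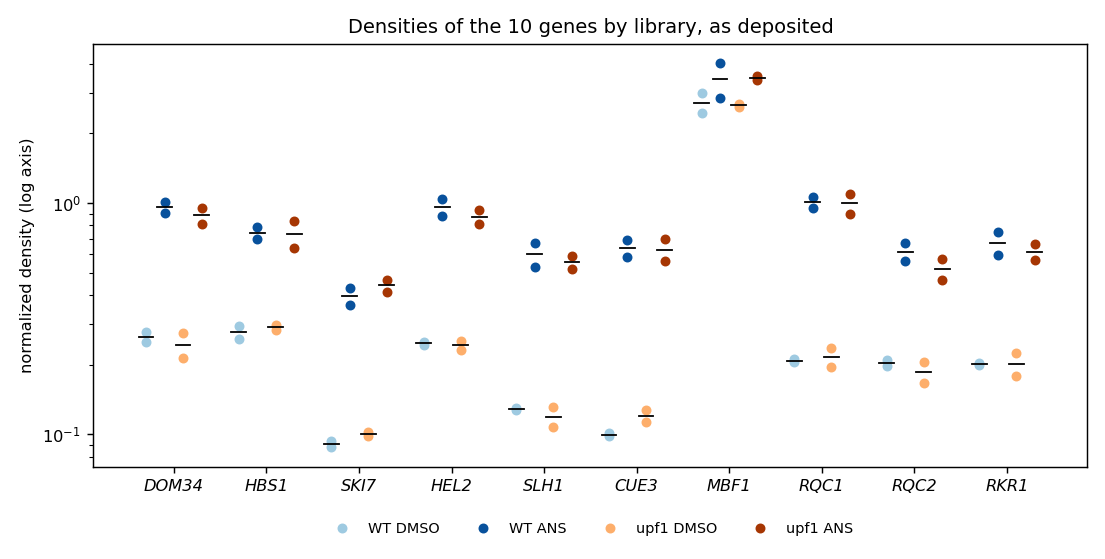
Deposited density (log axis) of each of the 10 genes in the 8 libraries, with points for libraries coloured by group and short lines for the mean of 2. For 9 genes every ANS library lies above every DMSO library. On this scale 96.0% of tested protein-coding genes were called higher under ANS in WT and 95.8% in upf1. Their share without overlap was not computed. For MBF1 the WT ANS libraries, 2.84 and 4.02, overlap the WT DMSO libraries, 2.45 and 2.99, since 2.84 lies between these.

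ANS against DMSO in WT asks how the transcripts of the factors that act on stalled ribosomes stood after a block of elongation. On the deposited scale 9 of the 10 genes rose and MBF1 was not called, against 96.0% of tested protein-coding genes that rose, so that the share of the 10 is near the background. The median change of the 10 was 1.89 (log2), beside 1.73 for protein-coding genes. On the relative scale 5 rose (CUE3, RQC1, SLH1, SKI7 and HEL2), 1 fell (MBF1) and 4 were not called (DOM34, HBS1, RQC2 and RKR1). Here the background was 33.3% of protein-coding genes higher and 29.6% lower, and the median of the 10 was 0.19 beside 0.07. In upf1 all 10 rose on the deposited scale, beside 95.8% of protein-coding genes. Statements below that deposited ANS and DMSO libraries of a gene do not overlap are to be read against these shares. On the relative scale 6 rose in upf1, the same 5 and DOM34, 1 fell (MBF1) and 3 were not called, with 24.1% of protein-coding genes higher and 27.3% lower. The calls for CUE3, RQC1, SLH1, SKI7 and MBF1 relative to protein-coding genes held in both genotypes under every alternative setting and without any 1 library.

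**Figure D2:**
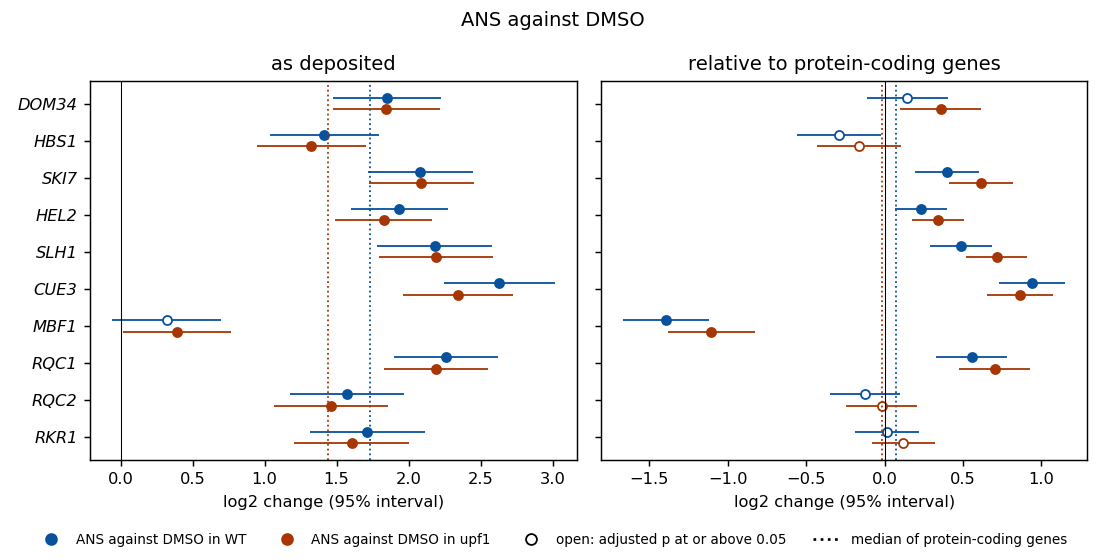
Change under ANS (log2, with 95% intervals of the limma fit) of each gene in WT and upf1, as deposited on the left and relative to protein-coding genes on the right, with open points where the adjusted p was at or above 0.05 and dotted lines at the median of protein-coding genes. CUE3 has the highest and MBF1 the lowest value in each genotype and on each scale.

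Among the rescue factors, DOM34, the eRF1-like protein that enters the empty A site, had densities of 0.250 and 0.277 in WT with DMSO and 0.910 and 1.01 in WT with ANS. In upf1 they were 0.274 and 0.215 in DMSO and 0.951 and 0.815 under ANS, so that treated and untreated libraries did not overlap in either genotype. The deposited change was 1.85 ± 0.17 in WT (adjusted p = 3.75e-06) and 1.84 ± 0.17 in upf1. On the relative scale DOM34 changed by 0.14 ± 0.11 in WT (95% interval -0.11 to 0.40), which was not called. It rose by 0.36 ± 0.11 in upf1 (adjusted p = 0.0391), a call that was lost without upf1 DMSO replicate 2 (0.24), upf1 ANS replicate 1 (0.32) or upf1 ANS replicate 2 (0.40), and with no variance trend (0.36, adjusted p = 0.0837).

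HBS1, the GTPase that brings Dom34 to the ribosome, had densities of 0.295 and 0.257 in WT with DMSO, 0.696 and 0.787 in WT with ANS, 0.297 and 0.283 in upf1 with DMSO and 0.836 and 0.640 in upf1 with ANS. Each ANS value exceeded each DMSO value. Its deposited rise of 1.41 ± 0.17 in WT (adjusted p = 2.20e-05) and 1.32 ± 0.17 in upf1 was the smallest of the 10 after MBF1. HBS1 changed on the relative scale by -0.29 ± 0.11 in WT (adjusted p = 0.0654) and by -0.16 ± 0.11 in upf1, with 95% intervals of -0.56 to -0.02 and -0.43 to 0.10. The WT value passed the threshold without WT DMSO replicate 2 (-0.39).

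SKI7, the Ski complex bridge and the HBS1 paralog, had the lowest density of the 10 in every group. Its recovered reads numbered 224 and 291 in WT with DMSO and 521 and 571 in WT with ANS. Its densities were 0.0937 and 0.0878 in WT with DMSO, 0.364 and 0.429 in WT with ANS, 0.103 and 0.0988 in upf1 with DMSO and 0.467 and 0.414 in upf1 with ANS, with no overlap between treatments. SKI7 rose on the deposited scale by 2.08 ± 0.16 in WT (adjusted p = 1.92e-06) and 2.09 ± 0.16 in upf1. Against protein-coding genes SKI7 rose by 0.40 ± 0.09 in WT (adjusted p = 0.00687) and by 0.62 ± 0.09 in upf1 (adjusted p = 0.00163).

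Among the genes that act on collided ribosomes, the ubiquitin ligase gene HEL2 had densities of 0.245 and 0.252 in WT with DMSO and 0.883 and 1.04 in WT with ANS. In upf1 the values were 0.253 and 0.232 in DMSO and 0.934 and 0.810 under ANS. Treated libraries lay above untreated ones in both genotypes. HEL2 rose on the deposited scale by 1.93 ± 0.15 in WT (adjusted p = 1.91e-06) and 1.83 ± 0.15 in upf1. Against protein-coding genes HEL2 rose by 0.23 ± 0.07 in WT (adjusted p = 0.0264) and by 0.34 ± 0.07 in upf1 (adjusted p = 0.00818). The WT call was lost without WT DMSO replicate 1 (0.21), WT DMSO replicate 2 (0.25) or WT ANS replicate 1 (0.18), and with no variance trend or only the WT groups in the fit (adjusted p = 0.0726 and 0.0706). The upf1 call was lost without upf1 ANS replicate 1 (0.31, adjusted p = 0.0573).

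SLH1, the helicase of the RQT complex, had densities of 0.127 and 0.131 in WT with DMSO, 0.530 and 0.672 in WT with ANS, 0.131 and 0.107 in upf1 with DMSO and 0.590 and 0.519 in upf1 with ANS. All ANS libraries exceeded all DMSO libraries. SLH1 rose on the deposited scale by 2.18 ± 0.18 in WT (adjusted p = 2.26e-06) and 2.19 ± 0.18 in upf1. SLH1 also rose against protein-coding genes, by 0.49 ± 0.08 in WT (adjusted p = 0.00222) and by 0.71 ± 0.08 in upf1 (adjusted p = 6.86e-04).

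CUE3, the ubiquitin-binding subunit of the same complex, rose more than any other of the 10. Its densities were 0.0983 and 0.101 in WT with DMSO, 0.584 and 0.692 in WT with ANS, 0.127 and 0.114 in upf1 with DMSO and 0.697 and 0.559 in upf1 with ANS. ANS and DMSO libraries did not overlap in either genotype. The deposited rise was 2.63 ± 0.17 in WT (adjusted p = 1.09e-06), or 6.19-fold, and 2.34 ± 0.17 in upf1. CUE3 also rose against protein-coding genes, by 0.94 ± 0.09 in WT (adjusted p = 1.63e-04) and by 0.86 ± 0.09 in upf1 (adjusted p = 4.25e-04).

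MBF1, the frame-keeping factor, behaved unlike the other 9. Its densities were 2.99 and 2.45 in WT with DMSO, 2.84 and 4.02 in WT with ANS, 2.69 and 2.61 in upf1 with DMSO and 3.41 and 3.55 in upf1 with ANS. The WT groups overlapped, and the upf1 groups did not. The deposited change was 0.32 ± 0.17 in WT (95% interval -0.06 to 0.70, adjusted p = 0.0937), and it passed the threshold without WT ANS replicate 1 (0.57, adjusted p = 0.00298). The deposited rise in upf1 was 0.39 ± 0.17 (adjusted p = 0.0489). That call was lost without any 1 of the DMSO or upf1 ANS libraries (0.36 to 0.42), and also with a smaller pseudocount, with no filter or with no variance trend.

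Against protein-coding genes MBF1 fell in both genotypes. On that scale its densities were 5.65 and 4.60 in WT with DMSO against 1.84 and 2.05 in WT with ANS, and 4.09 and 4.33 in upf1 with DMSO against 1.83 and 2.09 in upf1 with ANS. Every treated library was below every untreated one. The change was -1.39 ± 0.12 in WT (adjusted p = 9.92e-05) and -1.10 ± 0.12 in upf1 (adjusted p = 4.71e-04). The direction of MBF1 thus depends on the scale, since its deposited values were higher under ANS in the mean of each genotype.

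Among the quality control genes of the large subunit, RQC1 had densities of 0.211 and 0.205 in WT with DMSO and 0.955 and 1.06 in WT with ANS. In upf1 they were 0.235 and 0.196 in DMSO and 1.09 and 0.90 under ANS. The treatments did not overlap in either genotype. The deposited rise of RQC1 was 2.26 ± 0.16 in WT (adjusted p = 1.35e-06) and 2.19 ± 0.16 in upf1. RQC1 also rose against protein-coding genes, by 0.56 ± 0.10 in WT (adjusted p = 0.00247) and by 0.70 ± 0.10 in upf1 (adjusted p = 0.00141).

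RQC2, which builds the alanine and threonine tails, had densities of 0.197 and 0.210 in WT with DMSO, 0.559 and 0.670 in WT with ANS, 0.205 and 0.167 in upf1 with DMSO and 0.571 and 0.465 in upf1 with ANS. Treated libraries exceeded untreated ones. The deposited rise was 1.57 ± 0.18 in WT (adjusted p = 1.47e-05) and 1.46 ± 0.18 in upf1. RQC2 changed against protein-coding genes by -0.13 ± 0.10 in WT and -0.02 ± 0.10 in upf1, neither of which was called, with 95% intervals of -0.35 to 0.10 and -0.24 to 0.20.

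RKR1, the ligase gene, had densities of 0.199 and 0.202 in WT with DMSO, 0.594 and 0.747 in WT with ANS, 0.224 and 0.179 in upf1 with DMSO and 0.666 and 0.568 in upf1 with ANS. Here too every ANS library lay above every DMSO library. The deposited rise was 1.71 ± 0.18 in WT (adjusted p = 8.72e-06) and 1.60 ± 0.18 in upf1, close to the median of protein-coding genes. On the relative scale RKR1 changed by 0.01 ± 0.09 in WT and 0.12 ± 0.09 in upf1, neither called, with 95% intervals of -0.19 to 0.22 and -0.08 to 0.32.

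The change under ANS went with the level of a gene over all protein-coding genes. When these were placed in 10 bins of equal size by mean density, the median deposited change in WT was 1.99 in bin 3 and 0.85 in bin 10, the most abundant. MBF1 lay in bin 10 and changed by 0.53 less than the median of that bin. CUE3, in bin 6, changed by 0.80 more than its bin and RQC1, in bin 8, by 0.64 more. HBS1 was 0.30 below and RQC2 0.26 below the medians of their bins. The remaining 5 genes lay within 0.30 of theirs. These distances are descriptions, since mean density includes the ANS libraries.

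**Figure D3:**
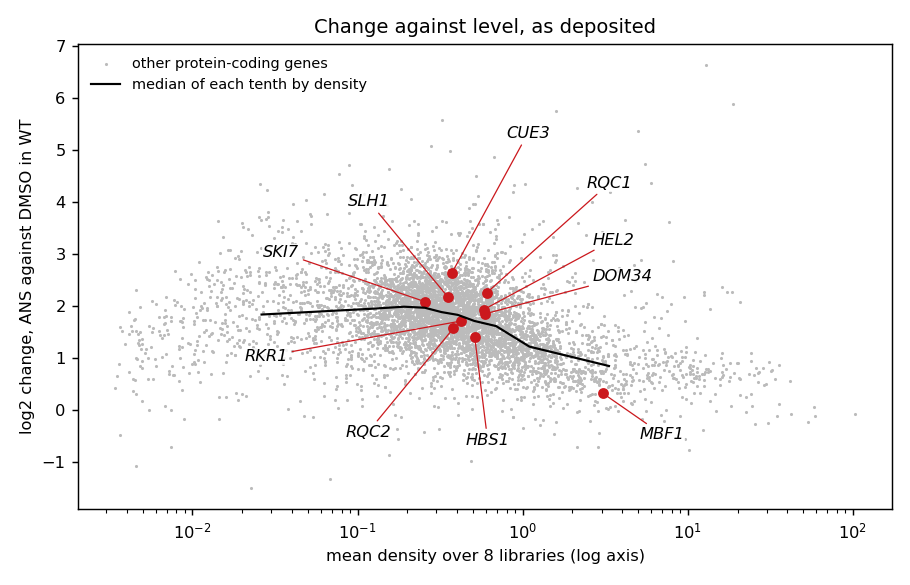
Deposited log2 change under ANS in WT against mean density over 8 libraries (log axis) for tested protein-coding genes (grey) and the 10 genes (red), with a black line through the medians of 10 density bins. The line falls from 1.99 in bin 3 to 0.85 in bin 10, with CUE3 and RQC1 above it and MBF1 below it.

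The comparison of upf1 with WT in DMSO asks whether loss of nonsense-mediated decay alters these transcripts, and it shares the WT DMSO libraries with the ANS comparison above. On the deposited scale limma called 0 of the 10 genes, where 24.0% of protein-coding genes were called. At an unadjusted p below 0.05 there were also 0 of the 10, beside 1779 of 5777 protein-coding genes. The deposited changes ran from -0.14 for RQC2 to 0.26 for CUE3, and the intervals of these were -0.53 to 0.26 and -0.12 to 0.65. Relative to protein-coding genes 5 of the 10 were lower in upf1, beside 29.8% of protein-coding genes that were lower. They were RQC2 (-0.38 ± 0.10, adjusted p = 0.0149), SLH1 (-0.36 ± 0.08, adjusted p = 0.0103), DOM34 (-0.36 ± 0.11, adjusted p = 0.0302), HEL2 (-0.28 ± 0.07, adjusted p = 0.0153) and RKR1 (-0.25 ± 0.09, adjusted p = 0.0480).

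These 5 genes were picked by calls on these same values, and their relative densities show small separations. HEL2 was at 0.463 and 0.474 in WT with DMSO and at 0.386 and 0.385 in upf1 with DMSO, without overlap. SLH1 was at 0.241 and 0.246 in WT with DMSO and 0.20 and 0.178 in upf1 with DMSO. RQC2 was at 0.373 and 0.395 against 0.312 and 0.276. DOM34 (0.473 and 0.522 against 0.418 and 0.356) and RKR1 (0.377 and 0.381 against 0.341 and 0.296) were also separate. Separation was not particular to the called genes. HBS1, RQC1, SKI7 and MBF1 were not called and were also lower in both upf1 libraries than in either WT library. CUE3 overlapped (0.186 and 0.191 against 0.194 and 0.188). The share of protein-coding genes that separate in this way was not computed. The size of these falls and their calls are tied to the scale, since the median of protein-coding genes was -0.13 after rescaling and 0.10 before it. The relative change also went with level, with a median of 0.49 in density bin 1 and -0.34 in bin 10. Measured from the medians of their bins, the 5 changes ran from -0.29 (RQC2) to -0.09 (HEL2). On the deposited scale the 5 changes were also negative, from -0.14 (RQC2) to -0.01 (RKR1), and none was called. With upper quartile scaling they ran from -0.26 (RQC2) to -0.13 (RKR1), and 0 of the 10 were called. With no variance trend, or with only the compared groups in the fit, 3 were called, and DOM34 and RKR1 lost their calls. Without upf1 DMSO replicate 2 all 5 calls were lost, at changes from -0.29 (RQC2) to -0.15 (RKR1). Without WT DMSO replicate 2 the calls of DOM34 (-0.29), HEL2 (-0.26), RQC2 (-0.34) and RKR1 (-0.24) were lost, and that of SLH1 was kept. The HEL2 call was also lost without upf1 DMSO replicate 1 (-0.28). The RKR1 call was lost in 7 of 8 omissions of 1 library (-0.35 to -0.15 over all 8). The 5 genes that were not called, HBS1, SKI7, RQC1, CUE3 and MBF1, changed by -0.28 (MBF1) to 0.02 (CUE3), and MBF1 passed the threshold without WT DMSO replicate 2 (-0.43, adjusted p = 0.0298).

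Under ANS, no difference between upf1 and WT was called in any of the 10 genes. On the deposited scale limma called 0, beside 1.99% of protein-coding genes. At an unadjusted p below 0.05 there were also 0 of the 10, beside 727 of 5777 protein-coding genes. Relative to protein-coding genes it called 0 as well, beside 8.62% of protein-coding genes called. An unadjusted p below 0.05 was reached by 2, HEL2 (-0.17 ± 0.07) and RQC2 (-0.28 ± 0.10), beside 1648 of 5777 protein-coding genes. The relative changes ran from -0.28 for RQC2 to 0.12 for SKI7. For CUE3 the interval was -0.27 to 0.16 and for MBF1 it was -0.26 to 0.29.

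**Figure D4:**
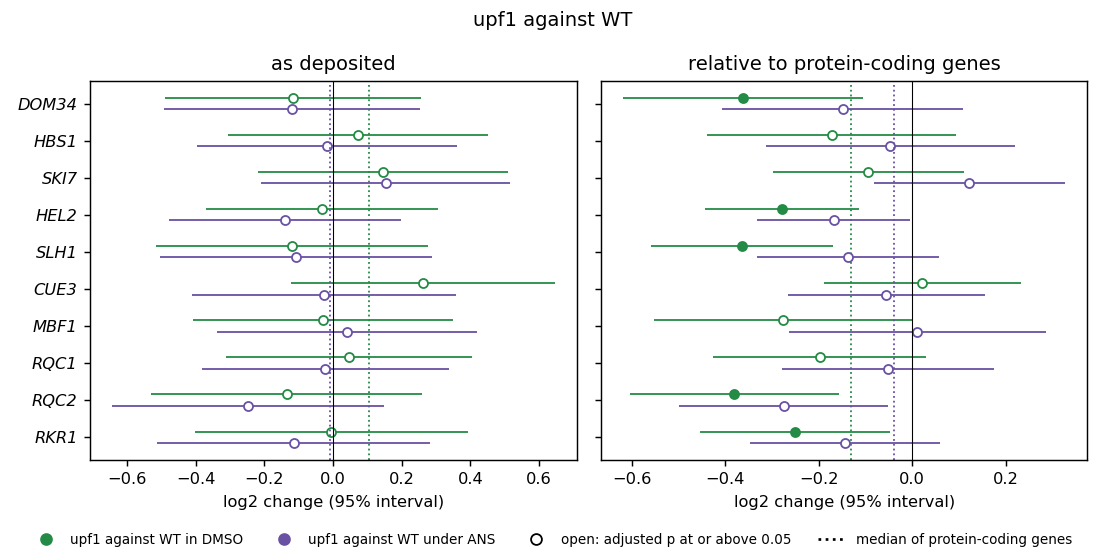
Change between upf1 and WT (log2, with 95% intervals of the limma fit) of each gene in DMSO and under ANS, as deposited on the left and relative to protein-coding genes on the right, with open points where the adjusted p was at or above 0.05. The 5 filled points, all in DMSO on the right, lie between -0.38 and -0.25, and every point on the left is open.

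The interaction asks whether the change under ANS differed between upf1 and WT. limma called 0 of the 10 genes on either scale, where 6.49% of protein-coding genes were called on the deposited scale and 10.1% relative to protein-coding genes. At an unadjusted p below 0.05 there were also 0 of the 10 on either scale. Of 5777 protein-coding genes, 936 reached it on the deposited scale and 1405 on the relative scale. The relative differences ran from -0.08 ± 0.13 for CUE3 to 0.29 ± 0.17 for MBF1. The 95% intervals of the difference were -0.10 to 0.68 for MBF1 and -0.05 to 0.50 for SLH1.

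Ratios of densities within a library do not depend on how libraries are scaled, and 5 pairs of partners were compared. A shift in a ratio restates the difference between the changes of its pair. How often other pairs of genes separate the treatments was not computed. The ratio of HBS1 to its paralog SKI7 was 3.15 and 2.93 in WT with DMSO, 1.91 and 1.83 in WT with ANS, 2.89 and 2.86 in upf1 with DMSO and 1.79 and 1.54 in upf1 with ANS. It was lower in each of the 4 ANS libraries than in any DMSO library, by -0.74 (log2) over both genotypes, -0.70 in WT and -0.79 in upf1. The exact permutation test of 4 against 4 libraries gave p = 0.0286, two-sided, the smallest it can give with 70 splits, and 0.0714 after adjustment over the 10 ratio tests. A pair cannot separate fully by both treatment and genotype, so no adjusted value could fall below 0.0571 in this design, and a miss of the threshold says nothing about the ratios.

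The ratio of the partners DOM34 and HBS1 also separated the treatments. Its values were 0.847 and 1.08 in WT with DMSO, 1.31 and 1.28 in WT with ANS, 0.923 and 0.759 in upf1 with DMSO and 1.14 and 1.27 in upf1 with ANS. It was higher under ANS by 0.48 (log2), 0.44 in WT and 0.53 in upf1, with an exact permutation p = 0.0286 (adjusted 0.0714). RQC1 against RQC2 went from 1.07 and 0.973 to 1.71 and 1.58 in WT and from 1.15 and 1.17 to 1.91 and 1.93 in upf1, a difference of 0.71 (log2) with the same exact p and adjusted value. For the ligases HEL2 and RKR1 the ratio was higher by 0.22 under ANS, again without overlap of the 4 and 4 libraries and with the same exact p. CUE3 against its complex partner SLH1 was 0.771 and 0.775 in WT with DMSO and 1.10 and 1.03 in WT with ANS, but 0.974 and 1.06 in upf1 with DMSO and 1.18 and 1.08 in upf1 with ANS. The treatments overlapped when both genotypes were pooled (difference 0.31, exact permutation p = 0.0571, adjusted 0.114). Between upf1 and WT the exact permutation p ran from 0.2 to 0.829, in a test that pools DMSO and ANS libraries and so takes the shift with treatment into its spread. Within each treatment, the ratio of RQC1 to RQC2 was higher in both upf1 libraries than in either WT library, by 0.19 (log2) in DMSO and 0.23 under ANS, which was not tested by itself. CUE3 to SLH1 was likewise higher in both upf1 libraries in DMSO, by 0.39, and overlapped under ANS, where the difference was 0.08.

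**Figure D5:**
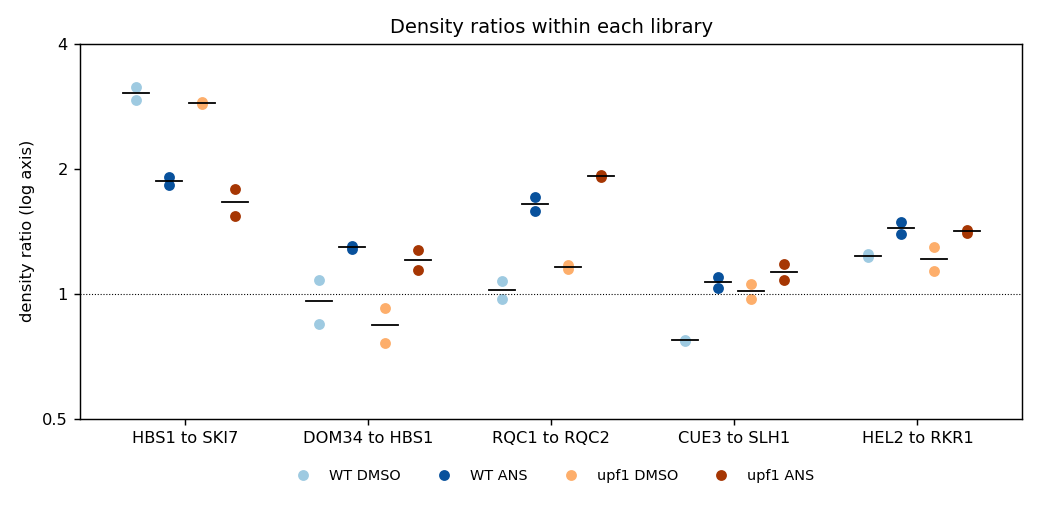
Density ratio (log axis) of 5 pairs of genes in each library, with points coloured by group and short lines at the mean of 2 libraries. HBS1 to SKI7 is lower in all 4 ANS libraries (1.54 to 1.91) than in the DMSO libraries (2.86 to 3.15), and RQC1 to RQC2 is higher in all 4 (1.58 to 1.93).

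The wider pathway was described on 35 further genes of stalled-ribosome handling, all of which were tested. In WT under ANS, 33 rose and 0 fell on the deposited scale, with a median of 1.55. There 96.0% of protein-coding genes rose, so that the share of the 35 is near the background. After rescaling, 4 were called higher and 16 lower, beside 33.3% and 29.6% of protein-coding genes. The median of the 35 was -0.16 beside 0.07. The rises included CUE2, the endonuclease that cuts mRNA at collided ribosomes (0.89 ± 0.10, adjusted p = 2.98e-04), RQT4, the third subunit of the complex of SLH1 and CUE3 (0.80 ± 0.17, adjusted p = 0.00635), and VMS1, which frees stuck peptides from tRNA (0.60 ± 0.08, adjusted p = 6.76e-04). The largest falls were those of the abundant genes STM1, a ribosome preservation factor (-1.56 ± 0.15), CDC48, the segregase that Rqc1 helps to recruit (-1.36 ± 0.11), and UBC4, a ubiquitin-conjugating enzyme (-1.35 ± 0.07). UBC4 has a near-identical paralog, UBC5, and the counting of reads shared by the pair is not given in the sources used here. On the deposited scale UBC4 rose in WT by 0.36 ± 0.12 (adjusted p = 0.0152), and STM1 and CDC48 were not called (0.16 ± 0.20 and 0.36 ± 0.19), so the sign of these 3 depends on the scale as it does for MBF1. Without WT ANS replicate 1, STM1 (0.48) and CDC48 (0.57) passed on the deposited scale, and without WT DMSO replicate 1 or 2 the call of UBC4 was lost (0.36 in either case).

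In upf1 under ANS, 6 of the 35 were higher and 14 lower on the relative scale, beside 24.1% and 27.3% of protein-coding genes. RQT4 rose by 0.77 ± 0.17 (adjusted p = 0.0114), SYH1, a GYF domain protein, by 0.55 ± 0.09 and CUE2 by 0.36 ± 0.10 (adjusted p = 0.0259). The calls of RQT4 (0.75 to 0.80) and CUE2 (0.33 to 0.38) were lost without any 1 of the 4 upf1 libraries. STM1 (-1.26 ± 0.15), UBC4 (-1.20 ± 0.07) and CDC48 (-1.19 ± 0.11) again fell most.

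In upf1 against WT in DMSO, CUE2 and LSO2, a ribosome-binding protein of dormant cells, were higher on both scales. CUE2 rose by 1.01 ± 0.17 on the deposited scale (adjusted p = 0.00138), from a density of 0.0552 to 0.115, and LSO2 by 1.17 ± 0.18 (adjusted p = 6.67e-04), from 0.124 to 0.284. They were the only 2 of the 35 called there, and 0 of the 10 genes above were, beside 24.0% of protein-coding genes. After rescaling the same 2 were higher and 17 were lower, beside 1269 and 1719 (29.8%) of 5777 protein-coding genes. The largest falls were SYH1 (-0.62 ± 0.09), STM1 (-0.62 ± 0.15) and SMY2, a paralog of SYH1 (-0.59 ± 0.10), and the call of STM1 was lost without WT DMSO replicate 1 (-0.40), upf1 DMSO replicate 1 (-0.61) or upf1 DMSO replicate 2 (-0.62). Under ANS 0 were higher and 2 lower on the relative scale, where 8.62% of protein-coding genes were called in either direction. The 2 were the GTPase gene RBG1 (-0.36 ± 0.08, adjusted p = 0.0487) and NEW1, an ABC protein of translation termination (-0.29 ± 0.06, adjusted p = 0.0325). Both calls were lost without any 1 of the WT ANS, upf1 DMSO or upf1 ANS libraries (-0.40 to -0.31 for RBG1 and -0.32 to -0.26 for NEW1).

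For each of the 10 genes the protein-coding gene with the most similar profile was sought among those at or above the median density, by Pearson's r of relative log2 values over the 8 libraries, which fall into 4 groups. HEL2 was nearest to RSC4 (r = 0.998) and RQC1 to RSC58 (0.993), both subunits of the RSC chromatin remodeller. SLH1 was nearest to CEX1 (0.995), a factor of tRNA export, and CUE3 to COG2 (0.993), of the Golgi tethering complex. MBF1 was nearest to AHP1 (0.998), an abundant peroxiredoxin with a deposited density of 15.1 in both WT groups. SKI7 was nearest to NGL1 (0.985), RQC2 to the tRNA methyltransferase gene NCL1 (0.988), DOM34 to NOT5 (0.972) of the Ccr4-Not complex, RKR1 to the cullin gene CDC53 (0.964) and HBS1 to END3 (0.928), the lowest of the 10. With 2930 or 2931 candidates and profiles set mostly by the treatment, high values are the rule, and no p is given.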

How the data were processed

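Total RNA of 8 yeast libraries was measured. The deposited values are normalized densities (signal) per feature. Per the submitters' processing notes, HISAT2 2.2.0, Trim Galore, DESeq2 and featureCounts 2.0.0 were used with build R64, and neither their roles nor the basis of normalization is stated. For 100% of features with a value above 0, some length of 20 to 20000 nt gave whole reads times 1 factor per library (tolerance 1e-05 reads). These factors match the inverse of size factors computed by median ratio on 76 snoRNAs, with ratios of 0.997 to 1.004 between them. ERCC spike-ins were not analysed here. How multiply mapping reads were counted is not given in the sources used here.

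limma 3.58.1 (R 4.3.3) was fitted to log2(density + 0.00340), a pseudocount set at percentile 5 of the positive values, with 1 mean per group over 8 libraries and a variance trend (4 residual degrees of freedom). It ran on 11579 features with a mean at or above the pseudocount, 387 being left out, with adjustment over all tested features in each of 5 comparisons. The second fit used densities rescaled per library on 5642 protein-coding genes. p-values cover the spread between 2 biological replicates a group, whose separate cultures are not described further. Same-numbered replicates were not taken as pairs, since correlations of their deviations ran from -0.176 to 0.253. The script was tested on simulated data. Members and lists were chosen with earlier results of these data known. Genes named were the 10, NAM7, up to 3 rises and 3 falls a comparison among 35 pathway genes, and 1 nearest profile each. Sequences were read from the RefSeq R64 genome. Alternatives covered the pseudocount, filter, variance trend, groups in the fit, adjustment, scaling, a replicate block and each library left out.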

Additional observations from a re-analysis of the deposited data

Results flagged for a closer look

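SKI7 was lower in both upf1 libraries than in either WT library in DMSO, relative to protein-coding genes, and higher than both under ANS. Its mean log2 difference was -0.0957 in DMSO (0.157 and 0.164 against 0.177 and 0.165), and under ANS the limma change was 0.12 (0.250 and 0.244 against 0.236 and 0.218). The interaction was 0.22 ± 0.12 by limma (adjusted p = 0.314), which misses the threshold. The rank of libraries thus reversed on this scale, while the 95% interval of the difference, -0.07 to 0.51, included 0. The closest upf1 and WT values in DMSO, 0.164 and 0.165, came from 388 and 291 reads. On the deposited scale there was no reversal, with limma changes of 0.15 in DMSO and 0.15 under ANS. The deposited interaction by limma was 0.01 ± 0.23 (adjusted p = 0.996).

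Among the wider pathway genes, LSO2 responded to ANS differently with and without Upf1. The deposited rise was 2.04 ± 0.18 in WT and 0.93 ± 0.18 in upf1, an interaction of -1.10 ± 0.25 (adjusted p = 0.0280), and relative to protein-coding genes the interaction was -0.90 ± 0.19 (adjusted p = 0.0273). In upf1 the relative change of LSO2 was -0.55 ± 0.14, so its direction there depends on the scale. The interaction was lost without any 1 of 6 libraries on each scale (-1.26 to -0.95 and -1.06 to -0.74 over all 8 omissions), among them every upf1 library.

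CUE2 had a relative interaction of -0.54 ± 0.14 (adjusted p = 0.0490), from a rise of 0.89 in WT and of 0.36 in upf1. The call was lost without any library other than WT DMSO replicate 1 (-0.63 to -0.45 over 8 omissions). On the deposited scale it was not called (-0.73 ± 0.24, adjusted p = 0.106), and it passed there without WT ANS replicate 1 (-0.86, adjusted p = 0.0388). The 10 genes themselves had 0 interactions called by limma, beside 6.49% (deposited) and 10.1% (relative) of protein-coding genes. They also had 0 at an unadjusted p below 0.05, beside 936 (deposited) and 1405 (relative) of 5777 protein-coding genes.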

How the results depend on the processing

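Of the 10 counts of members called, 9 stayed within 1.5 times under every alternative. The count for upf1 against WT in DMSO, relative to protein-coding genes, was 5 and became 3 with no variance trend, 3 with only the compared groups, 0 with upper quartile scaling and 0 to 4 when each library was left out, and the cause was not tested. No value of a member or pathway gene changed sign with a call. Of the members' alternative values, 1582 kept their side of the threshold, 44 lost it and 4 gained it. The pathway genes gave 613, 70 and 6. The adjusted p of the ratios could not pass the threshold in this design, so their alternatives carry no information on stability.

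With the replicate number as a block, the members called in WT under ANS, relative to protein-coding genes, were 7 in place of 6, through HBS1 (-0.29, adjusted p = 0.0344), and the deposited count in upf1 was 9 in place of 10, through MBF1 (0.39, adjusted p = 0.0591). The other 8 counts kept their value under the block. Among pathway genes the block ended the calls of UBC4 (0.30, ANS in upf1, deposited), RBG1 (-0.36, upf1 against WT under ANS) and CUE2 (-0.54, interaction). Each group had 2 libraries, so leaving out 1 leaves a lone library that is assumed to vary like the other groups. Read counts were 215 to 3782 per member and library, and the counting error of the lowest limits small changes most.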
